A study of Rattus norvegicus with 12 samples.

Results

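The genes described are Sspn, which encodes sarcospan, and 8 further genes of the dystrophin glycoprotein complex (Sgca, Sgcb, Sgcd, Sgce, Dag1, Dmd, Utrn and Sntb1). They are 9 of the 33294 genes in the deposited count table, and all 9 passed the filter that left 18438 genes for testing. They were picked by symbol because Sspn had been seen to be nearly lost in cells depleted of RBFOX2 or QKI and not of RBPMS, so the values of Sspn are given as a description and without a test. RNA was sequenced from PAC1 cells, a smooth muscle cell line from rat pulmonary artery, after knock-down (KD) with siRNAs against RBPMS, RBFOX2 or QKI, RNA-binding proteins that regulate splicing. The study describes these knockdowns as done in differentiated PAC1 cells. It reports that control cells of this experiment were less differentiated than those of its other one. Control cells received the siRNA called C2, which the study describes as scrambled. Each of the 4 groups holds 3 libraries. Per the labels, every group was transfected with 90 pmol of siRNA, transfected again 24 h later and harvested 48 h after that. The study's methods describe longer intervals. A single siRNA was used for each target and a single cell line for all groups, and the study's methods state that its knock-down conditions were repeated as biological replicates, while the labels give no more than a replicate number. The p-values measure the spread between these libraries.

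The dystrophin glycoprotein complex connects the actin cytoskeleton to laminin in the basement membrane around muscle cells. Dystroglycan, made from Dag1, binds laminin outside the cell and dystrophin or its relative utrophin inside. The sarcoglycans are membrane glycoproteins that assemble with each other and then join dystroglycan, and sarcospan, a small protein that crosses the membrane several times, binds to the sarcoglycans. Syntrophins and dystrobrevins attach on the cytoplasmic side. Striated muscle uses α-sarcoglycan in this assembly, and smooth muscle uses the related ε-sarcoglycan. Inherited loss of dystrophin or of a sarcoglycan causes muscular dystrophy, and sarcoglycan loss also affects vascular smooth muscle.

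The sequences of the siRNAs are shown because the whole comparison rests on these agents, and are given as the sense strand listed by the study, 5′ to 3′.
siRNA C2: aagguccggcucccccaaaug
siRNA RBPMS: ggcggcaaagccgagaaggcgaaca
siRNA RBFOX2: gcaaugguucagccuuuua
siRNA QK: ggacuuacagcuaaacaac

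The 250 bases before the annotated start of Sspn, the gene with the lowest log2FC of the 9 in RBFOX2 and QKI KD, and of Sgca and Sgce, the sarcoglycan genes that rose together in all 3 knockdowns, are shown from RefSeq in build GRCr8, which differs from the build of the counts. The windows lie at chr4:180627632-180627881 on the plus strand, chr10:80416076-80416325 on the minus strand and chr4:33808789-33809038 on the minus strand. Capitals mark E boxes (CANNTG, which reads alike on both strands) and GC boxes (GGGCGG on either strand).
Sspn: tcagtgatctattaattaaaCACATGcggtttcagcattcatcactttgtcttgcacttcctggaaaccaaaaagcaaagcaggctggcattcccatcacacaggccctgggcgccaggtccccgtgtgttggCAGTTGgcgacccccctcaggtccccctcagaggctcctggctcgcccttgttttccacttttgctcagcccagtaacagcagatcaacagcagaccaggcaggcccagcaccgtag
Sgca: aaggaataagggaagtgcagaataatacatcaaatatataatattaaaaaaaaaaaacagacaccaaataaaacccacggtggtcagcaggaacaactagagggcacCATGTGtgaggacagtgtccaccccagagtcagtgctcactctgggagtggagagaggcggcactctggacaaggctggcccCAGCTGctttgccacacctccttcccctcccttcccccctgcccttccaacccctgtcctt
Sgce: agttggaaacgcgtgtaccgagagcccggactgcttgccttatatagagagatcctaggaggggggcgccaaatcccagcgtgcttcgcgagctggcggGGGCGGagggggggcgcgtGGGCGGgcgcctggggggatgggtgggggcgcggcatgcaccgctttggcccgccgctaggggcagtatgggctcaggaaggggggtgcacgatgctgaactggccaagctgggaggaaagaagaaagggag
The Sspn window held 2 E boxes, at −230 and −117 from the start, and the Sgca window held 2, at −143 and −61. The Sgce window held no E box and 2 GC boxes, at −151 and −132. An E box occurred in 65.5% of all 33469 windows of this length and a GC box in 30.5%, so the letters are common and a match describes the sequence only. A CArG box, the motif named for serum response factor, was found in none of these 3 windows, in 1 of the 3 windows of Dmd at −98, and in 1.5% of all windows. The windows of Sgcb and Utrn held none of the 3 motifs and that of Sgcd held 1 E box, at −46. Windows were matched for 7 of the 9 genes. Dag1 and Sntb1 were not matched.

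Library totals ranged from 111 to 152 M counts. Levels are given in CPM, counts scaled to the TMM-adjusted size of the library, and CPM does not correct for gene length, so levels are compared between libraries and not between genes. Statements that the libraries of groups did not overlap describe the gene named. The share of all tested genes without overlap is not given, so such a statement does not set a gene apart. The siRNA targets checked the labels: each lay below all control libraries in the cells that received its siRNA, with log2 ratios to control (log2FC, the estimate of the edgeR fit) of −2.497 for Rbpms, −2.05 for Rbfox2 and −3.13 for Qk, the symbol of QKI. The knockdowns also touched each other's targets, since Rbpms changed by −0.81 in RBFOX2 KD and −0.49 in QKI KD, and Qk by −0.42 in RBFOX2 KD. All 9 smooth muscle markers examined were detected in every group, and their summed level was 2120 to 2185 CPM in control, 1084 to 1193 CPM in RBPMS KD, 837 to 936 CPM in RBFOX2 KD and 1458 to 1546 CPM in QKI KD. Acta2, Tagln and Myl9 made up most of these sums, and single markers ran against them, since Myh11 was at 207% of control in RBFOX2 KD and Des at 197% and Myocd at 172% in QKI KD. By adjusted p 3 of the 9 were higher and 6 lower in RBPMS KD, 2 higher and 5 lower in RBFOX2 KD, and 3 higher and 5 lower in QKI KD. Of all tested genes 59.4%, 60.3% and 66.9% passed by that measure in either direction. The 7 skeletal or cardiac muscle markers summed to between 5.18 and 7.44 CPM over all libraries. The 5 endothelial markers summed to 8.73 to 10.8 CPM in control, 8.84 to 9.12 CPM in RBPMS KD, 5.18 to 5.76 CPM in RBFOX2 KD and 6.46 to 6.75 CPM in QKI KD. The 4 fibroblast markers, mostly Lum, summed to 44.5 to 84.0 CPM in control, 27.1 to 29.0 CPM in RBPMS KD, 41.6 to 49.3 CPM in RBFOX2 KD and 22.9 to 26.1 CPM in QKI KD. The 4 blood cell markers summed to 5.40 to 5.93 CPM in QKI KD and at most 2.45 CPM in the other groups, with Ptprc and Adgre1, like the endothelial marker Kdr, at 6 counts or fewer in every library. In QKI KD Csf1r averaged 3.63 CPM, at 896% of control, and Cd68 1.98 CPM, at 191%. The part of these transcripts in the values below was not tested.

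Sspn was present in control and RBPMS KD and left only a remnant in RBFOX2 and QKI KD. Its level was 36.2, 36.2 and 39.1 CPM in the control libraries and 32.5, 29.5 and 31.9 CPM in RBPMS KD. It was 1.53, 1.22 and 1.46 CPM in RBFOX2 KD and 0.664, 0.774 and 0.468 CPM in QKI KD. The order of the groups was control, RBPMS KD, RBFOX2 KD and QKI KD, and no library of a group overlapped with the next group in this order. Means were 37.1 ± 1.69 (SD, n = 3), 31.3 ± 1.59, 1.401 ± 0.163 and 0.635 ± 0.155 CPM. RBFOX2 KD thus kept 3.77% of the control level, a 26.5-fold lower level in the fit, and QKI KD kept 1.71%, a 58.5-fold lower level. RBPMS KD kept 84.4%, a log2FC of −0.25 (SE 0.069). The level under QKI siRNA was 2.21-fold lower than under RBFOX2 siRNA, a log2 difference of −1.14 (SE 0.14). The remnant was above the counting floor of 3, with 171 to 211 counts per library in RBFOX2 KD and 58 to 92 in QKI KD. In bulk RNA, fewer cells that carry a transcript and less of it per cell cannot be told apart. The counts are sums over a gene and do not show which isoform was lost.

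Of the 3 tested genes nearest to Sspn on each side in the RefSeq gene order, the 5 with ample counts did not share its pattern. Genes that were not tested may lie between them. Before it in that order, Bhlhe41, a transcriptional repressor of the circadian system, differed from control by 0.09, 0.77 and 0.16 as log2FC in RBPMS, RBFOX2 and QKI KD. Rassf8, a Ras association domain gene, was higher in all 3, by 1.47, 1.71 and 1.89 (edgeR adjusted p 1.12e-14, 7.86e-16 and 1.29e-16). Tuba3b, an α-tubulin gene, differed by −0.03, −0.02 and −0.58. After it, Itpr2, an intracellular calcium release channel, differed by −0.96, −0.16 and −1.36, and Ints13, a subunit of the Integrator complex, by 0.32, 0.22 and −0.16. The nearest tested gene after Sspn, listed only as LOC102549898, held 6, 14 and 8 counts in control and 11, 13 and 6 in RBPMS KD. It held 0, 0 and 1 counts in RBFOX2 KD and 1, 2 and 0 in QKI KD. This gene passed the filter through libraries of control and RBPMS KD, where its counts were highest, so its low counts elsewhere are no support for a pattern shared with Sspn. All its counts were at most 14, and whether reads of neighbouring genes were separated is not stated.

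The 5 genes whose log2 CPM over the 12 libraries was most like that of Sspn, by Pearson's r among 11473 genes of at least 1 CPM, were Strn3 (r = 0.995), Ctbp2 (0.994), Stom (0.992), Atxn7l3b (0.992) and Sacm1l (0.991). Their r describes the shape over 4 groups, taken from the same 12 libraries for every gene, and is not a test. The size of the change was not alike. Sspn differed from control by −4.73 and −5.87 in RBFOX2 and QKI KD, whereas Atxn7l3b differed by −1.59 and −1.91 and the other 4 by between −0.64 and −0.56 in RBFOX2 KD and between −0.90 and −0.67 in QKI KD. Of the other 8 genes of the complex, Sntb1 was nearest to Sspn (r = 0.917, rank 210), followed by Sgcb (0.659, rank 1742), and Sgce (−0.653) and Sgca (−0.524) ran the opposite way.

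**Figure D1:**
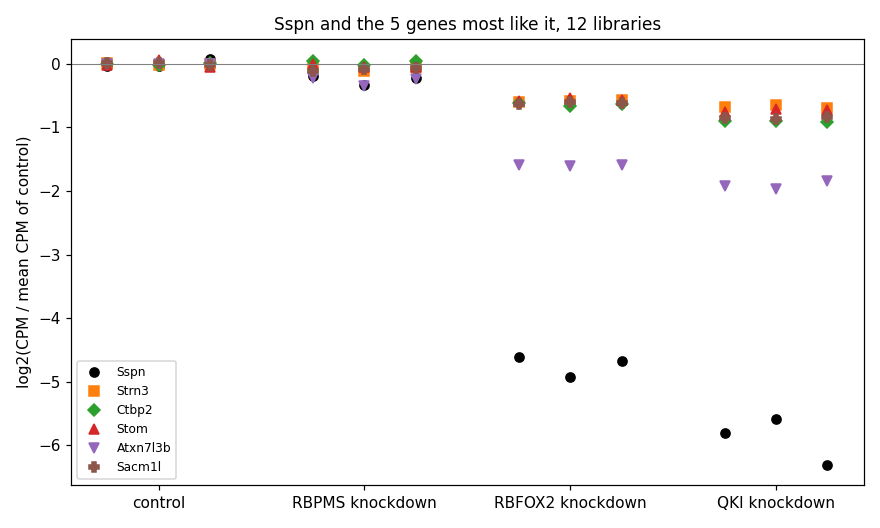
Sspn and the 5 genes with the most similar pattern, as log2 of CPM divided by the mean control CPM, for 12 libraries in the order control, RBPMS, RBFOX2 and QKI KD. Points are libraries. Sspn falls below −4 in all RBFOX2 and QKI KD libraries, while the other 5 genes stay above −2.

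α-Sarcoglycan (Sgca) and ε-sarcoglycan (Sgce), which are related in sequence, rose in all 3 knockdowns. Sgca was at 6.85, 7.21 and 6.63 CPM in control, 15.9, 18.5 and 17.6 CPM in RBPMS KD, 13.8, 15.1 and 14.9 CPM in RBFOX2 KD and 16.3, 16.2 and 18.01 CPM in QKI KD. Every KD library was above every control library. The log2FCs came to 1.33 (SE 0.066), 1.08 (SE 0.066) and 1.29 (SE 0.066), and edgeR gave adjusted p of 2.50e-11, 2.57e-10 and 1.45e-11. RBFOX2 KD differed from RBPMS KD by −0.25 (adjusted p 0.00292, or −0.15 and 0.0509 with scaling to library totals), while QKI and RBPMS KD were not told apart (−0.04, 95% interval −0.18 to 0.09). Sgce measured 12.9, 12.1 and 11.3 CPM in control, against 40.8, 42.6 and 41.6 CPM in RBPMS KD. It was at 39.3, 39.4 and 38.8 CPM in RBFOX2 KD and 51.8, 49.2 and 51.9 CPM in QKI KD. The 9 KD libraries lay above the 3 control libraries, with QKI KD highest. The log2FCs came to 1.78 (SE 0.046), 1.696 (SE 0.046) and 2.08 (SE 0.046), and the adjusted p were 7.28e-15, 6.37e-15 and 2.62e-16. Directly compared, QKI KD exceeded RBFOX2 KD by 0.38 (adjusted p 4.78e-07) and RBPMS KD by 0.29 (adjusted p 1.52e-05). Myod1, a transcription factor of skeletal muscle, also rose in all 3 knockdowns. Its level was 0.441, 0.376 and 0.191 CPM in control and 1.47, 1.803 and 1.46 CPM in RBPMS KD, and then 1.53, 1.58 and 1.86 CPM in RBFOX2 KD and 0.881, 0.905 and 1.15 CPM in QKI KD. Among the knockdowns Myod1 was lowest in QKI KD, where Sgce was highest. Myog, which acts after Myod1 in muscle cells, had at most 26 counts in any library. Of the 7 skeletal or cardiac markers 5 were tested, and Myod1 alone rose by the threshold of the study. Of all tested genes 5.16%, 6.96% and 8.28% rose by it in RBPMS, RBFOX2 and QKI KD. Tnnt2 was lower in RBPMS KD (−0.67, adjusted p 0.000149) and QKI KD (−0.38, adjusted p 0.00981). Nkx2-5 had 12, 14 and 16 counts in control and 4 in each RBFOX2 KD library. It passed the filter through libraries in which it was high, so its call as lower in RBFOX2 KD is no support for a change. The summed level of the 7 spanned 5.76 to 5.90 CPM in control, 5.18 to 6.87 in RBPMS, 6.70 to 7.44 in RBFOX2 and 5.83 to 6.15 in QKI KD. The part of muscle transcripts in the rise of Sgca and Sgce was not tested.

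β-Sarcoglycan (Sgcb) and δ-sarcoglycan (Sgcd), the core pair around which the other sarcoglycans assemble, fell only in QKI KD among the 3 comparisons with control. Sgcb was at 74.7, 76.2 and 74.8 CPM in control, 80.98, 80.6 and 83.5 CPM in RBPMS KD and 78.3, 81.9 and 82.5 CPM in RBFOX2 KD. QKI KD held 34.8, 36.02 and 37.5 CPM, below all 9 other libraries. The log2FC in QKI KD was −1.06 (SE 0.037, adjusted p 8.06e-14), and the direct differences were −1.18 from RBPMS KD (adjusted p 3.68e-14) and −1.16 from RBFOX2 KD (adjusted p 2.58e-14). Scaling to library totals gave −0.97 for QKI KD against control. RBPMS and RBFOX2 KD differed from control by 0.12 (adjusted p 0.00945) and 0.10 (adjusted p 0.0188), with the former at 0.074 (adjusted p 0.0910) under library totals, and from each other by −0.01 (95% interval −0.09 to 0.06). The value for RBFOX2 KD missed an adjusted p of 0.05 without control 1, control 3, RBFOX2 KD 2 or RBFOX2 KD 3. The adjusted p were then 0.0636, 0.056, 0.108 and 0.11.

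Sgcd had few counts and lay at 1.75, 1.95 and 2.14 CPM in control, 2.51, 2.53 and 2.27 CPM in RBPMS KD and 2.53, 2.504 and 2.58 CPM in RBFOX2 KD. QKI KD held 0.823, 0.826 and 0.452 CPM, or 114, 95 and 56 counts. These 3 libraries were the lowest of all 12. The log2FC was −1.47 (SE 0.17, adjusted p 4.80e-07), and the direct differences from RBPMS and RBFOX2 KD were −1.799 and −1.85 (adjusted p 5.00e-08 and 2.03e-08). Against control, RBPMS KD gave 0.33 (adjusted p 0.0693) and RBFOX2 KD 0.38 (adjusted p 0.0327). Without control 1, control 2 or any single RBFOX2 KD library the latter missed an adjusted p of 0.05, with 0.126, 0.0696, 0.0732, 0.0704 and 0.0839. Without QKI KD 3 the value for RBPMS KD passed it, with an adjusted p of 0.0145.

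**Figure D2:**
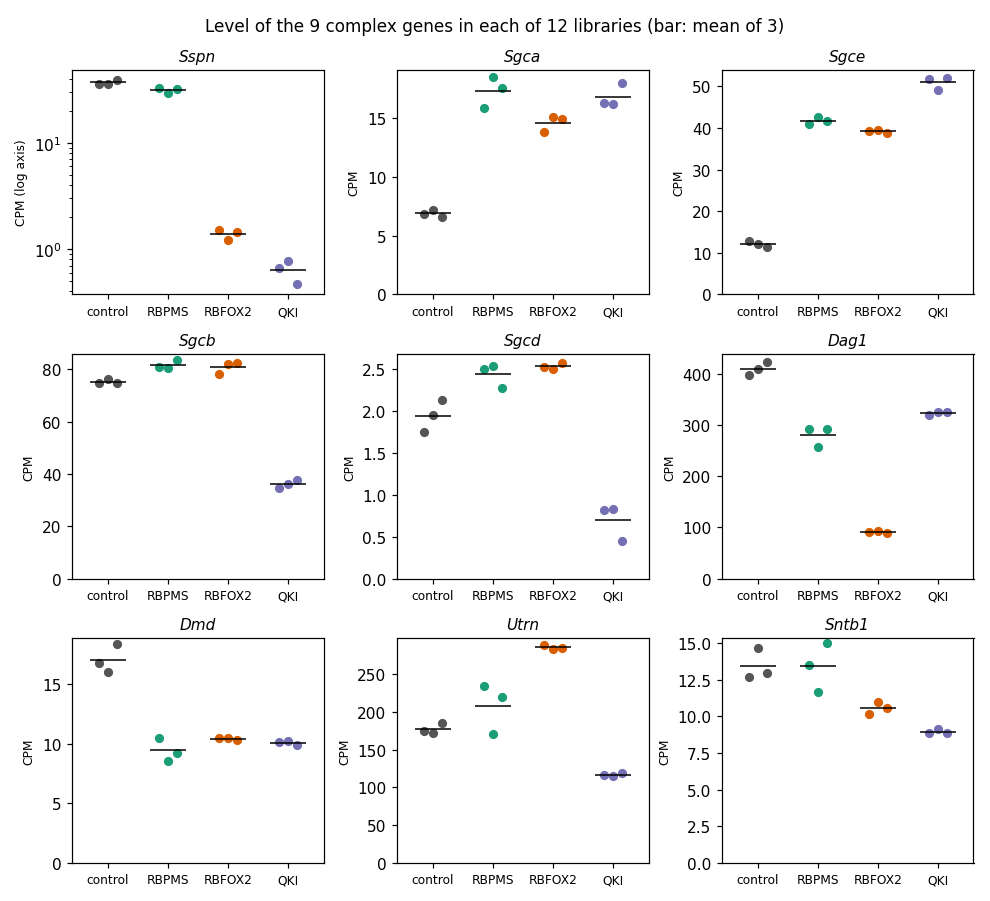
CPM of the 9 genes in each library, with points for libraries and a bar for the mean of 3. Sspn has a log axis and the other axes start at 0. Sspn is near the control level in RBPMS KD and low in RBFOX2 and QKI KD, Dag1 is low in RBFOX2 KD, and Sgcb and Sgcd are low in QKI KD.

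Dag1, the gene of dystroglycan, fell in all 3 knockdowns and furthest in RBFOX2 KD. Control libraries held 398, 409 and 422 CPM and RBFOX2 KD 90.6, 92.4 and 88.4 CPM. RBPMS KD held 293, 258 and 292 CPM and QKI KD 319, 326 and 325 CPM. No group overlapped with another. The log2FCs against control were −0.55 (SE 0.043), −2.18 (SE 0.045) and −0.34 (SE 0.043) in RBPMS, RBFOX2 and QKI KD, with adjusted p of 8.45e-09, 2.53e-16 and 1.94e-06. Only the change in RBFOX2 KD went beyond the absolute log2FC of 1 that the study uses, with 22.1% of the control level kept. Dag1 in RBFOX2 KD differed from RBPMS KD by −1.63 (adjusted p 1.46e-14), and QKI KD from RBFOX2 KD by 1.84 (adjusted p 8.97e-16). Dag1 and Sspn therefore differed in the KD that lowered them most. QKI KD kept 78.96% of Dag1 and 1.71% of Sspn.

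Dmd, the gene of dystrophin, fell in all 3 knockdowns, in each case to between 55.3% and 61.2% of the control mean. It was at 16.8, 16.01 and 18.4 CPM in control, 10.5, 8.57 and 9.25 CPM in RBPMS KD, 10.5, 10.5 and 10.4 CPM in RBFOX2 KD and 10.1, 10.2 and 9.88 CPM in QKI KD. All 9 KD libraries lay below the 3 control libraries. The log2FCs came to −0.86 (SE 0.068), −0.71 (SE 0.067) and −0.76 (SE 0.068), and the adjusted p were 9.32e-09, 7.65e-08 and 2.28e-08. None reached an absolute value of 1. In direct comparison, RBFOX2 and RBPMS KD differed by 0.15 (adjusted p 0.0807), QKI and RBPMS KD by 0.09 (95% interval −0.05 to 0.24) and QKI and RBFOX2 KD by −0.05 (95% interval −0.20 to 0.09). Without RBPMS KD 1 the first of these was 0.23 (adjusted p 0.00693) and the second 0.18 (adjusted p 0.0294). With library totals they were 0.25 (adjusted p 0.00629) and 0.22 (adjusted p 0.0104), the first was 0.18 (adjusted p 0.034) with a mean of at least 200 counts, and the second 0.23 (adjusted p 0.0059) in the authors' normalised table. Dmd is a long gene with several promoters, and its count adds up all products.

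Utrn, the gene of utrophin, which can take the place of dystrophin, moved in opposite directions in RBFOX2 and QKI KD. It was at 174, 172 and 185 CPM in control, 289, 283 and 284 CPM in RBFOX2 KD and 117, 115 and 119 CPM in QKI KD. These groups did not overlap. The log2FC was 0.69 (SE 0.075, adjusted p 4.64e-07) in RBFOX2 KD and −0.60 (SE 0.076, adjusted p 1.84e-06) in QKI KD, and the difference between the knockdowns was −1.29 (SE 0.076, adjusted p 1.03e-10). RBPMS KD held 234, 171 and 219.8 CPM, of which the middle value lay below every control library. Its log2FC of 0.23 (adjusted p 0.0134) was 0.14 without RBPMS KD 1 (adjusted p 0.0951), 0.19 without RBPMS KD 3 (adjusted p 0.0613) and 0.36 without RBPMS KD 2. It also missed an adjusted p of 0.05 in a fit of the 6 libraries alone (0.24, adjusted p 0.0535) and in the authors' normalised table (0.17, adjusted p 0.0563). Dmd and Utrn fell together in QKI KD, while in RBFOX2 KD Dmd fell and Utrn rose.

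Sntb1 encodes β1-syntrophin, an adaptor that binds dystrophin and dystrobrevin and brings signalling proteins to them. It measured 12.7, 14.6 and 12.95 CPM in control, against 13.5, 11.7 and 15.03 CPM in RBPMS KD, which overlapped (−0.0047, 95% interval −0.17 to 0.16). RBFOX2 KD held 10.1, 10.98 and 10.6 CPM and QKI KD 8.89, 9.13 and 8.86 CPM, both below all control libraries. The log2FCs of −0.34 (SE 0.078, adjusted p 0.000988) and −0.58 (SE 0.079, adjusted p 4.22e-06) stayed within an absolute value of 1. QKI KD differed from RBFOX2 KD by −0.24 (adjusted p 0.0133). This missed an adjusted p of 0.05 without RBFOX2 KD 2 (−0.20, adjusted p 0.0649) and in the authors' normalised table (−0.052, adjusted p 0.615). Sntb1 thus had the order of Sspn among the groups, control and RBPMS KD above RBFOX2 KD and RBFOX2 above QKI KD, within a far narrower range.

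**Figure D3:**
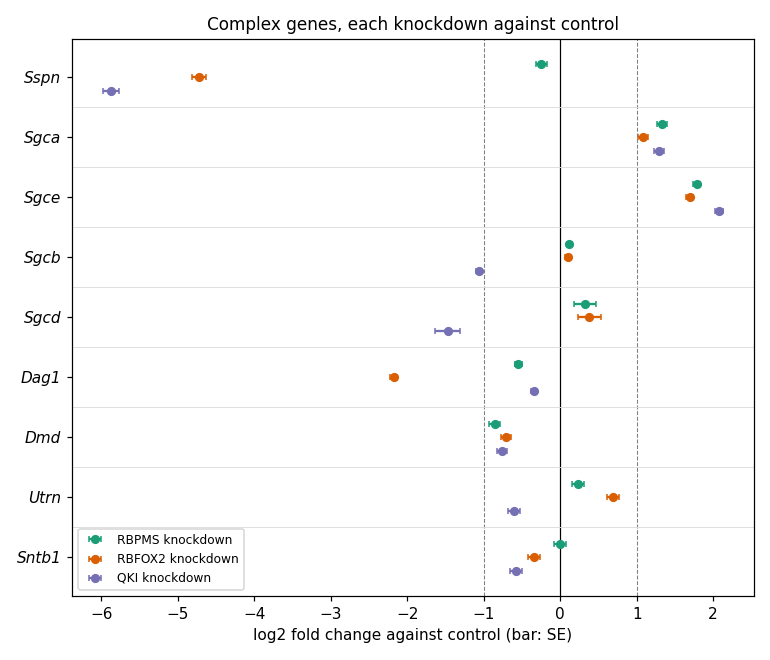
Log2 fold change against control with SE bars for the 9 genes in RBPMS, RBFOX2 and QKI KD. Dashed lines mark an absolute value of 1. Sgca and Sgce lie above 1 in all 3 knockdowns, Dag1 lies beyond −1 in RBFOX2 KD, and Sgcb and Sgcd lie beyond −1 in QKI KD.

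Counted over the 8 genes other than Sspn, 2 of 8 changed in RBPMS KD by the threshold of the study (adjusted p under 0.05 and absolute log2FC above 1), where 9.66% of all tested genes changed (5.16% higher and 4.50% lower). Both rose (Sgca and Sgce). In RBFOX2 KD 3 of 8 changed, 2 up and 1 down (Dag1), against 11.7% of all genes (6.96% higher and 4.73% lower). In QKI KD 4 of 8 changed, 2 up and 2 down (Sgcb and Sgcd), against 17.5% (8.28% higher and 9.24% lower). By adjusted p alone the counts were 6, 8 and 8 of 8, but this holds for 59.4%, 60.3% and 66.9% of all genes, so most tested genes pass by that measure. The median log2FC of the 8 genes was 0.18, 0.24 and −0.59, beside 0.0085, 0.015 and 0.0070 over all genes. In the comparisons between knockdowns, 1 of 8 (Dag1) differed between RBFOX2 and RBPMS KD (7.52% of all genes), 2 of 8 (Sgcb and Sgcd) between QKI and RBPMS KD (12.2%) and 4 of 8 (Sgcb, Sgcd, Dag1 and Utrn) between QKI and RBFOX2 KD (18.4%). The 3 comparisons with control share the same control libraries, so their values stand side by side and are not independent of each other.

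The wider pathway was read from a list of 49 partner genes, of which 42 were tested. In RBPMS KD 3 of 42 changed, 2 up and 1 down, in RBFOX2 KD 2 of 42, 1 up and 1 down, and in QKI KD 10 of 42, 2 up and 8 down. Genes of few counts can pass the filter only through the libraries in which they are high, and among the 38 partner genes averaging 1 CPM or more the counts were 2, 1 and 9, with 1 of the 9 up and 8 down. The background shares are those given above, 9.66%, 11.7% and 17.5%, and cover all tested genes. No share is given for genes of at least 1 CPM, so the counts of that subset have no matching background. The median log2FC of the 42 genes was −0.20, −0.029 and −0.37. Sntb2, β2-syntrophin, measured 61.00 ± 3.59 CPM (SD, n = 3) in control, against 26.3 ± 0.545 CPM in QKI KD, a log2FC of −1.21 (SE 0.054, adjusted p 1.86e-12), against 0.30 in RBFOX2 KD. Dtnb, β-dystrobrevin, measured 31.9 ± 0.232 CPM in control, against 15.7 ± 1.06 CPM in QKI KD, and changed by −1.02 (SE 0.046, adjusted p 2.23e-12). It also fell in RBPMS and RBFOX2 KD, by 0.66 and 0.56. Without QKI KD 2 the value in QKI KD was −0.97. Sntb2 and Dtnb were the 2 of the 5 testable genes of this group that changed in QKI KD. Drp2, a dystrophin relative, was tested only because of its counts in the knockdowns, and its call in RBPMS and RBFOX2 KD is no support for a change. It had 4, 8 and 8 counts in control and between 12 and 38 counts per library in those knockdowns.

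Of the 10 laminins and other matrix ligands of dystroglycan with a mean of at least 1 CPM, 1 rose and 2 fell in QKI KD by the threshold (8.28% of all tested genes were higher and 9.24% lower). In RBPMS KD 1 rose and 1 fell (5.16% and 4.50% of all tested genes). Lamb3, which encodes the laminin β3 chain, was at 3.601, 4.92 and 4.71 CPM in control, 10.8, 11.6 and 11.7 CPM in RBPMS KD, 8.19, 9.06 and 8.895 CPM in RBFOX2 KD and 11.6, 13.1 and 12.4 CPM in QKI KD. All KD libraries were above control, with log2FCs of 1.36, 0.98 and 1.48 (adjusted p 9.52e-10, 5.89e-08 and 1.41e-10). The middle value passed 1 without control 2 (1.06), control 3 (1.02) or RBFOX2 KD 1 (1.01). Agrn, the proteoglycan agrin, was at 94.9 ± 5.04 CPM in control, 36.2 ± 3.64 CPM in RBPMS KD and 48.3 ± 2.005 CPM in QKI KD. It changed by −1.39 (SE 0.061, adjusted p 5.28e-12) in RBPMS KD and by −0.97 (adjusted p 1.75e-10) in QKI KD, which was beyond −1 without control 1 (−1.004) or QKI KD 2 (−1.001). Hspg2, the basement membrane proteoglycan perlecan, changed by −1.04 (SE 0.097, adjusted p 3.89e-08) in QKI KD, and by −0.96 without control 3 and −0.9997 without QKI KD 3. Bgn, biglycan, which binds sarcoglycans and dystroglycan, changed by −1.13 (SE 0.055, adjusted p 6.72e-12) in QKI KD, and by −0.78 in RBPMS KD and −0.63 in RBFOX2 KD.

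Of the 17 tested genes that glycosylate dystroglycan, 1 changed in QKI KD, where it fell, against 17.5% of all tested genes. In RBPMS and RBFOX2 KD 11 and 9 of 17 passed by adjusted p, where 59.4% and 60.3% of all tested genes did, with log2FCs between −0.88 and 0.56 and between −0.90 and 0.37 over all 17. In QKI KD 15 of 17 passed by adjusted p, where 66.9% of all tested genes did, with log2FCs between −1.10 and 0.59. Pomk, a kinase that phosphorylates the O-mannose glycan, measured 43.6, 43.5 and 47.2 CPM in control, against 21.1, 21.9 and 19.8 CPM in QKI KD (−1.096, SE 0.048, adjusted p 1.60e-12). The groups did not overlap.

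The other laminin receptor of muscle, the integrin pair of Itga7 and Itgb1, split between the knockdowns, with Itga7 lowest in QKI KD and Itgb1 lowest in RBFOX2 KD. Itga7, the α7 chain, was at 218, 217 and 221 CPM in control, 166, 159 and 169.9 CPM in RBPMS KD, 299, 304 and 308 CPM in RBFOX2 KD and 28.7, 29.5 and 28.2 CPM in QKI KD. It fell by 2.93 on the log2 scale in QKI KD (SE 0.036, adjusted p 2.53e-19) and rose by 0.47 in RBFOX2 KD (adjusted p 1.25e-09), a direct difference of −3.400 (adjusted p 7.72e-20). Itgb1, the β1 chain shared by many integrins, had log2FCs of −2.68 in RBFOX2 KD and −0.13 in QKI KD (0.068 in the authors' normalised table), a direct difference of 2.55 (adjusted p 2.07e-19). Dag1, for comparison, had −2.18 and −0.34. Ank2, ankyrin-B, which anchors dystrophin at the membrane, changed by −1.75 (SE 0.068, adjusted p 3.60e-13) in QKI KD, −0.77 in RBPMS KD and 0.21 in RBFOX2 KD. Synm, synemin, an intermediate filament protein that binds dystrobrevin, changed by −1.45 (SE 0.060, adjusted p 6.58e-13) in QKI KD and −0.73 in RBPMS KD. For Ank2, Itga7 and Sntb2 the direct difference between QKI and RBFOX2 KD was −1.96, −3.400 and −1.51 (adjusted p 8.78e-14, 7.72e-20 and 1.08e-13).

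**Figure D4:**
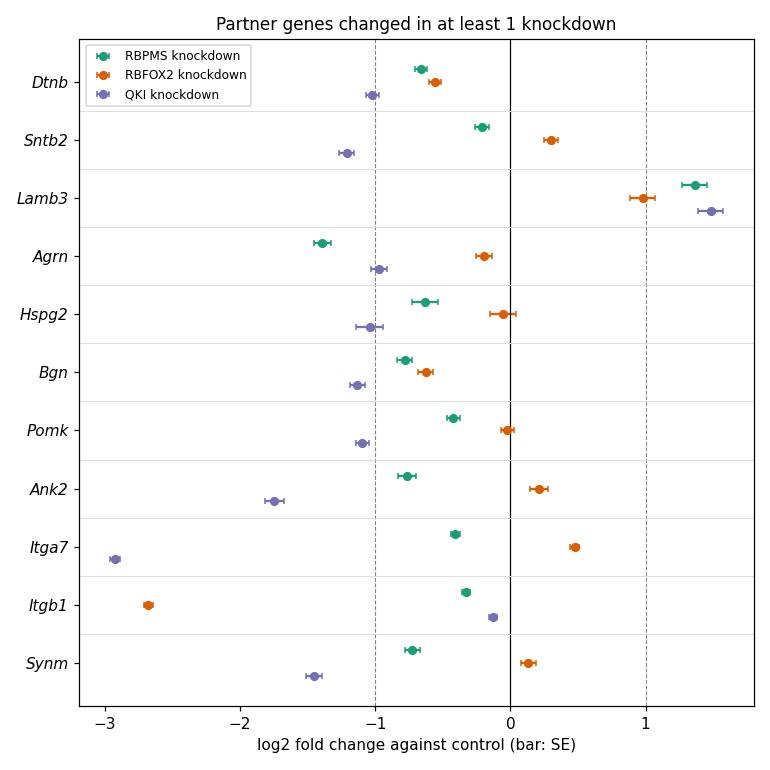
Log2 fold change against control with SE bars for the 11 partner genes of at least 1 CPM that changed in at least 1 KD. Dashed lines mark an absolute value of 1. In QKI KD Itga7, Ank2 and Synm lie furthest below 0 and Lamb3 above 1, in RBFOX2 KD Itgb1 alone lies beyond −1, and in RBPMS KD Lamb3 lies above 1 and Agrn beyond −1.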

How the data were processed

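RNA-seq libraries of poly(A)-selected RNA were made from PAC1 cells with a directional kit and sequenced as paired ends, 3 for each of 4 siRNA groups taken from the sample titles. Per the labels, the submitters' processing notes name STAR 2.5.2a and mRatBN7.2, whereas the study's methods give a later STAR, subsampling to an equal depth and featureCounts with a RefSeq annotation. The deposited counts per gene (33294 symbols, totals of 111 to 152 M) were used as they stand. Their totals differ between libraries, and 68.1% of values from 1 to 19 are even against 50.9% of the highest counts, so a fit on halved counts was run as well. Handling of strand and of reads shared by genes is not given in the sources used here, so Dmd and Utrn, the paralogous sarcoglycans and the syntrophins are uncertain to that extent. The authors' normalised signal (noise filter and quantile normalisation, 22320 genes) served as an alternative.

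Genes were kept by filterByExpr, which left 18438 genes holding 99.99% of counts, scaled by TMM and fitted over all 12 libraries with edgeR 4.0.16 in R 4.3.3 (glmQLFit and glmQLFTest, two-sided, common dispersion 0.00241). Adjusted p are Benjamini-Hochberg values computed across the tested genes. The study's threshold for a changed gene was kept, namely an adjusted p under 0.05 together with a log2 fold change (log2FC) beyond 1 in either direction. Levels are CPM with the SD of 3 libraries. Intervals are 95% intervals of the fit. With 3 libraries against 3 an exact permutation test cannot go below 0.1, so the p-values rest on the model. Replicate pairs differed beyond sampling noise (chi-square per degree of freedom 4.64 to 57.8). The scripts were tested on simulated data.

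The 9 genes, the partner list and the marker lists were chosen with earlier results of these data known. The text names the 9 genes, partner genes that changed in at least 1 knockdown with a mean of at least 1 CPM, the 5 genes most like Sspn, the 3 tested genes on each side of it in the RefSeq table of GRCr8, and the siRNA targets. Of the symbols, 81.0% occur in that table. Some genes of the partner list are not reported here and stay out of its counts. Myod1, Drp2 and the markers named were chosen after their values were seen. Alternatives were RLE factors or library totals for scaling, no filter or a mean of at least 200 counts, DESeq2 1.42.0, the 6 libraries of a comparison alone, a replicate block, halved counts, the authors' normalised table in limma 3.58.1 on log2(value + 1), and leaving out each library. Counting partner genes of at least 1 CPM alone was added after the data were seen.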

Additional observations from a re-analysis of the deposited data

How the results depend on the processing

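The counts of changed genes among the 8 genes other than Sspn lay within 1.5 times their values under all alternatives run, and the log2 fold change of Sspn ranged over these alternatives from −0.29 to −0.21 in RBPMS knockdown, −4.80 to −4.65 in RBFOX2 knockdown and −6.02 to −5.70 in QKI knockdown. Of the partner list, the count in RBFOX2 knockdown was 1 with a mean of at least 200 counts, and also 1 among partner genes of at least 1 CPM, a limit chosen after seeing the data, and 2 to 4 when libraries were left out (4 without control 2), and the count in QKI knockdown was 6 in the authors' normalised table and 9 to 11 when libraries were left out. In that table Sgcb (−0.99), Dtnb (−0.88), Hspg2 (−0.92) and Bgn (−0.91) were within 1 in QKI knockdown, and with library totals Sgcb (−0.97), Dtnb (−0.94) and Hspg2 (−0.96) were. For single genes, direction and side of an adjusted p of 0.05 were compared with the main fit. Both were kept by 694 of 729 values under other settings and 947 of 972 with a library left out. An absolute log2 fold change of 1 was not part of this count, so the values within 1 named above count as kept.

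The reversals concerned differences near 0. With library totals, Pomk in RBFOX2 knockdown became 0.031, and between knockdowns Sgcb (RBFOX2 against RBPMS) became 0.085, Sgce (RBFOX2 against RBPMS) 0.0098 and Sgca (QKI against RBPMS) 0.086. With a mean of at least 200 counts, the same differences were 0.019 for Sgcb and 8.79e-05 for Sgca. In the authors' normalised table Pomk became 0.0027, Itgb1 in QKI knockdown 0.068, Sgcb 0.047, Sgcd (RBFOX2 against RBPMS) −0.038, Sgca 0.091 and Dmd (QKI against RBFOX2) 0.12. With libraries left out, the values that crossed 0 ranged from −0.095 to 0.087 for Sntb1 in RBPMS knockdown, from −0.10 to 0.026 for Hspg2 and −0.049 to 0.015 for Pomk in RBFOX2 knockdown, from −0.031 to 0.0067 for Sgcb (RBFOX2 against RBPMS) and from −0.10 to 0.0067 for Sgca (QKI against RBPMS). The cause was not tested.

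Replicate numbers are shared by the groups, but the labels do not say that a number marks a common day or culture. Deviations from the group mean correlated between libraries of the same number with r from −0.18 to 0.15 and of other numbers with r from −0.23 to 0.27, and 2 of 12 libraries correlated best with their own number, so the numbers were not taken as pairs. With the replicate block, the counts of changed genes were 2, 3 and 4 of the 8 genes and 3, 2 and 10 of the partner list in RBPMS, RBFOX2 and QKI knockdown, and Sspn was at −0.25, −4.73 and −5.87. The block moved 1 named gene across an adjusted p of 0.05, Synm in RBFOX2 knockdown (0.13, adjusted p 0.0417). Of the 9 genes Sgcd had the largest SE, 0.17 in QKI knockdown against control.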
